A study of Drosophila melanogaster with 23 samples.

Results

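Insect cuticle is hardened and coloured by tanning, in which quinones made from dopamine and its acylated derivatives cross-link cuticle proteins or polymerise into pigment. The RNA of 7 genes of this pathway was followed through embryogenesis of Drosophila melanogaster, all of them chosen by gene identifier. They are Punch (Pu, FBgn0003162), pale (ple, FBgn0005626), Dopa decarboxylase (Ddc, FBgn0000422), black (b, FBgn0000153), ebony (e, FBgn0000527), tan (t, FBgn0086367) and yellow (y, FBgn0004034). All 7 had a row among the 10622 genes measured, and together they held 9 of the 24730 transcription start site clusters (TSCs), groups of neighbouring start sites treated as single promoters.

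Start sites were assayed by RAMPAGE, which sequences the 5′ ends of capped RNA, in whole embryos collected in successive 1-hour windows from 0-1 h to 22-23 h after egg laying. The 23 windows belong to the second of the study's replicate series and gave 1 library each, so no window was replicated. Every library came from the strain labelled y; cn bw sp, which carries alleles of yellow, cinnabar, brown and speck. No embryos free of those alleles were compared. The labels do not say which yellow allele it is, and a level of yellow RNA in this strain says nothing of its protein. Levels are in RPM, the reads of a gene or TSC scaled to 1000000 reads counted in TSCs. Since a capped RNA molecule gives a single 5′ end, RPM was compared between genes without scaling to gene length.

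In this pathway Punch, GTP cyclohydrolase, starts the synthesis of tetrahydrobiopterin, the cofactor that tyrosine hydroxylase needs. pale encodes tyrosine hydroxylase, which turns tyrosine into dopa, and Ddc turns dopa into dopamine. black encodes an aspartate decarboxylase that supplies beta-alanine, which the ebony synthase joins to dopamine to give N-beta-alanyldopamine, and tan encodes the hydrolase that reverses that step. yellow encodes a secreted protein needed for black melanin. The same enzymes that make dopamine in the epidermis also make it in dopaminergic neurons, and a whole embryo contains both tissues. In such bulk samples, more cells of a type and more RNA per cell cannot be told apart.

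Depth limits what the low genes can show. The 23 libraries held 83864003 reads in TSCs, from 286206 at 5-6 h to 14705005 at 1-2 h, with a median of 2664024. A gene without reads in a library could still have had a level of up to 3 reads, which is 0.204 RPM in the deepest library and 10.5 RPM in the shallowest. The windows 22-23 h, 12-13 h and 14-15 h were the next shallowest, with 380700, 438473 and 593906 reads. Intervals given with single windows are exact 95% intervals and, like these limits, cover counting error only. With 1 library per window, a change between neighbouring stages and a difference between their libraries cannot be told apart.

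Punch was the first of the 7 genes to pass 10% of its own summed RPM, at 10.1 h. In the windows of 6-9 h its level was not apart from that of pale. The reads of pale over those of Punch were 0.590 (interval 0.336 to 1.01) at 6-7 h and 0.959 (0.629 to 1.46) at 8-9 h. Punch had 3180 reads in all and a mean of 39.8 RPM, which placed it 3510th among the 10622 genes. Over the 8 windows of 0-8 h its level ran from 0 to 11.7 RPM with a median of 2.63, over the 8 windows of 8-16 h from 13.7 to 100 RPM with a median of 40.0, and over the 7 windows of 16-23 h from 27.1 to 108 RPM with a median of 87.0. No window of 8-16 h lay below the highest window of 0-8 h, while the ranges of 8-16 h and 16-23 h overlapped. The rise was steady from 5.83 RPM at 6-7 h through 18.4 RPM at 8-9 h to 100 RPM (interval 88.0 to 113) at 11-12 h. A lower stretch followed, in which the 4 windows of 13-17 h read 50.3, 42.1, 30.5 and 27.1 RPM, the last with an interval of 23.1 to 31.6. Punch then stood at 75.7, 90.8, 93.7 and 87.0 RPM in the 4 windows of 17-21 h. It read 44.4 RPM (31.7 to 60.4) on 40 reads at 21-22 h and 108 RPM (77.3 to 146) on 41 reads at 22-23 h. The 13.7 RPM at 12-13 h rested on 6 reads, and its interval (5.02 to 29.8) lay under those of both neighbouring windows.

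pale was by far the most abundant of the 7 genes, with 19423 reads and a mean of 276 RPM, 697th among all genes. Its level was 0 to 8.38 RPM (median 1.70) in 0-8 h, 10.2 to 877 RPM (median 157) in 8-16 h, and 201 to 1031 RPM (median 574) in 16-23 h. The first and second of these phases did not overlap. pale stayed at 17.6 and then 10.2 RPM in the windows of 8-10 h, after which the 4 windows of 10-14 h read 58.3, 104, 210 and 492 RPM.

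The profile of pale had 2 maxima. It stood at 877 RPM (interval 804 to 956) at 14-15 h, then at 584 RPM (558 to 610) and 201 RPM (190 to 213) in the next windows. From 294 RPM at 17-18 h it climbed again through 654 RPM at 18-19 h to 1031 RPM (961 to 1105) at 19-20 h, and then read 814, 574 and 412 RPM in the last windows. The low point at 16-17 h came from a library of 5906729 reads and 1187 reads of pale, and its interval was apart from those of both neighbours. Punch was also low at 16-17 h, at 27.1 RPM, whereas Ddc had its highest value there.

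Ddc appeared later and at a lower level. It had 789 reads and a mean of 8.16 RPM, 6835th among all genes. A single read was found in 0-8 h, at 3-4 h. In 8-16 h its level ran from 0 to 11.4 RPM with a median of 0.608, and 4 of those 8 windows had no read. In 16-23 h every window held Ddc reads and the level lay between 16.4 and 33.5 RPM with a median of 23.1, so these 7 windows did not overlap with any earlier one. Ddc was at 2.19 RPM at 13-14 h, 11.4 RPM (8.04 to 15.6) at 15-16 h and 33.5 RPM (29.0 to 38.5) at 16-17 h. After that it read 24.8, 29.5, 23.1, 16.4, 18.9 and 21.0 RPM, with the interval at 20-21 h (13.5 to 19.7) below those of 16-17 h and 18-19 h. Relative to its mean it was the most even of the genes late in the series, with a standard deviation of 5.99 RPM around a mean of 23.9 RPM over the 7 windows.

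The genes of the beta-alanine branch were scarce. black, which supplies beta-alanine, had 20 reads in all, 14 of them at 17-18 h, where its level was 1.90 RPM (interval 1.04 to 3.18). Its other 6 reads were single ones, 1 of them in each of the first 2 windows and the rest between 14 and 21 h. With a mean of 0.184 RPM it ranked 10500th and was not measured well enough to give a profile.

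ebony, the synthase, had 130 reads and a mean of 1.39 RPM. No ebony read was found in the 8 windows of 0-8 h. It lay between 0 and 1.68 RPM (median 1.07) in 8-16 h and between 1.11 and 8.52 RPM (median 2.63) in 16-23 h. The ranges of these phases overlapped. It read 2.20 and 2.85 RPM in the windows of 16-18 h, then 8.52 RPM (interval 6.47 to 11.0) at 18-19 h on 58 reads, and 1.74 RPM (0.900 to 3.04) on 12 reads at 20-21 h. The single window of 18-19 h thus held 58 of the 110 ebony reads of 16-23 h.

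tan, the hydrolase, had its highest value earlier than the synthase, on few reads. Of its 57 reads, 29 fell in 8-16 h and 27 in 16-23 h. It was at 1.46 RPM at 10-11 h and highest at 13-14 h, with 14 reads or 5.10 RPM (interval 2.79 to 8.56). It was at 1.86 RPM (0.930 to 3.33) at 16-17 h and between 0 and 1.16 RPM in the windows from 17-18 h on, so the phases overlapped. With a mean of 0.821 RPM, tan missed the minimum mean of 1 RPM asked for by the tests, as black did.

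yellow RNA was present in this yellow mutant strain. It had 445 reads and a mean of 3.77 RPM, 8108th among all genes. Only 3 of its reads came from 0-8 h and 28 from 8-16 h, most of these, 23, at 15-16 h. Its level was 0 to 0.838 RPM (median 0) in 0-8 h, 0 to 6.88 RPM (median 0.364) in 8-16 h and 0 to 17.2 RPM (median 12.2) in 16-23 h. The late phase overlapped with the earlier ones only through the windows 19-20 h and 22-23 h. The level went from 6.88 RPM (4.36 to 10.3) at 15-16 h through 10.8 and 15.6 RPM to 17.2 RPM (14.2 to 20.6) at 18-19 h, and read 15.4 RPM (12.6 to 18.6) at 20-21 h.

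Between those last windows, at 19-20 h, yellow had 1 read, or 1.28 RPM with an interval of 0.0325 to 7.15, which lay under the intervals of 18-19 h and 20-21 h. The library of 19-20 h held 779483 reads, in which pale had its highest value of the series and tan and black had no read. Its part in the low value of yellow was not tested. At 22-23 h yellow had no read, a count that allows a level of up to 7.88 RPM there.

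**Figure D1:**
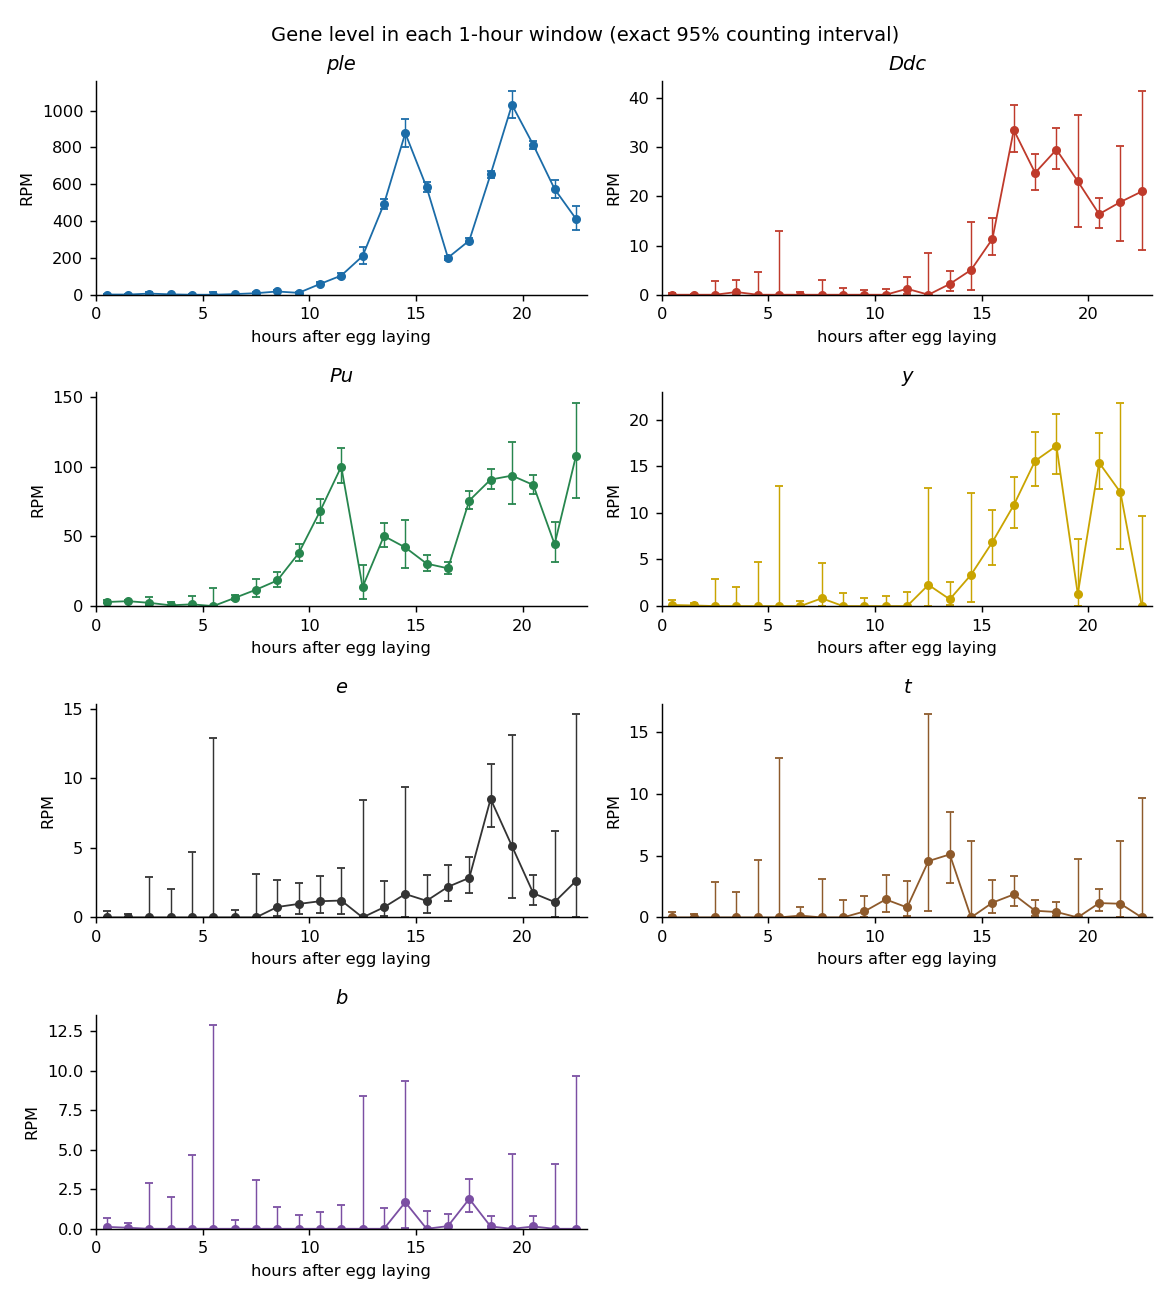
Level of each gene in RPM (vertical axis, a separate linear scale for each gene) against hours after egg laying, 1 point per library with its exact 95% counting interval. pale has maxima of 877 and 1031 RPM on either side of a low point of 201 RPM at 16-17 h, and Ddc and yellow have most of their reads from 15-16 h on.

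Time dependence was asked of each gene with a moderated F test in limma, as a smooth curve with 4 degrees of freedom through the 23 windows on the log2(RPM + 1) scale, which understates changes of low genes. Of the 7 genes, 5 had a mean of at least 1 RPM and were tested, and all 5 changed with time. That says little about the pathway, since 92.2% of the 9538 genes tested were called. Their fitted ranges, the highest minus the lowest fitted log2 value, were wider than the median gene's 2.74 in pale (8.31, SE 0.44, adjusted p = 2.91e-13), Punch (5.52, SE 0.72, adjusted p = 1.33e-08), Ddc (5.04, SE 0.33, adjusted p = 1.55e-13) and yellow (3.81, SE 0.55, adjusted p = 1.16e-06). ebony had a fitted range of 2.14 (SE 0.48, adjusted p = 3.39e-05). The fitted curves were highest at 17-18 h for yellow, 18-19 h for Ddc and ebony, 19-20 h for pale and 22-23 h for Punch. With 6 degrees of freedom they were highest at 18-19 h for yellow, 19-20 h for ebony and 20-21 h for Punch. Ddc and pale kept their windows. Without the minimum on the mean, tan passed the same test with a fitted range of 1.71 (SE 0.41, adjusted p = 0.00395) and black did not, with 0.77 (SE 0.38, adjusted p = 0.153).

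A direction was given to these changes by comparing the means of log2(RPM + 1) between 0-8 h, 8-16 h and 16-23 h, again with limma. The windows of a phase are successive stages and not replicates, so the error includes change within a phase. From 0-8 h to 8-16 h, 4 of the 5 tested genes rose and none fell, where 25.1% of all tested genes rose and 20.4% fell. pale rose by 5.49 (SE 0.75, adjusted p = 4.06e-06) and Punch by 3.52 (SE 0.45, adjusted p = 1.34e-06). ebony rose by 0.92 (SE 0.28, adjusted p = 0.00851). The difference of Ddc, 1.05 (SE 0.43, adjusted p = 0.0480), stood at the threshold and was lost when any of 18 windows was left out, with an adjusted p of up to 0.121, and with TMM scaling (adjusted p = 0.0601). yellow differed by 0.81 (SE 0.55, adjusted p = 0.233) and was not called, although the edgeR test on the recovered reads gave a log2 difference of 3.87 with an adjusted p of 0.0128. Without the minimum mean, limma called tan (1.09, SE 0.32, adjusted p = 0.00894) but not black (0.15, SE 0.22, adjusted p = 0.621) or Ddc (adjusted p = 0.0509).

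From 8-16 h to 16-23 h, 4 of the 5 tested genes again rose and none fell. The minimum mean favours such a count among low genes. Ddc, with phase means of 0.0685, 2.48 and 23.9 RPM, met it through 16-23 h. So did ebony, with 0, 0.964 and 3.45 RPM, and yellow, with 0.128, 1.66 and 10.4 RPM. Among all tested genes 16.0% rose and 39.4% fell over the same step, and the median gene differed by -0.60, compared with 0.01 over the earlier one. Ddc rose by 3.47 (SE 0.45, adjusted p = 1.27e-06), yellow by 2.01 (SE 0.57, adjusted p = 0.00450) and ebony by 1.06 (SE 0.29, adjusted p = 0.00329). pale rose by 1.97 (SE 0.78, adjusted p = 0.0354), a call lost in 8 of the 23 fits that left out a window, in edgeR (1.50, adjusted p = 0.124) and with a pseudocount of 0.1 (adjusted p = 0.0960). Punch differed by 0.84 (SE 0.47, adjusted p = 0.130) and was not called. Without the minimum mean, the same limma test called neither tan (-0.42, SE 0.34, adjusted p = 0.291) nor black (0.13, SE 0.23, adjusted p = 0.644).

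The scale mattered to the later step. TMM scaling, which sets the libraries to a common level of the bulk of genes, brought the median gene to -0.02 over the later step and 0.12 over the earlier one. On it Punch rose by 1.51 (SE 0.46, adjusted p = 0.0119), pale by 2.65 (SE 0.80, adjusted p = 0.0114) and Ddc by 3.98 (SE 0.47, adjusted p = 2.72e-07). No direction among the tested genes turned between the scales.

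**Figure D2:**
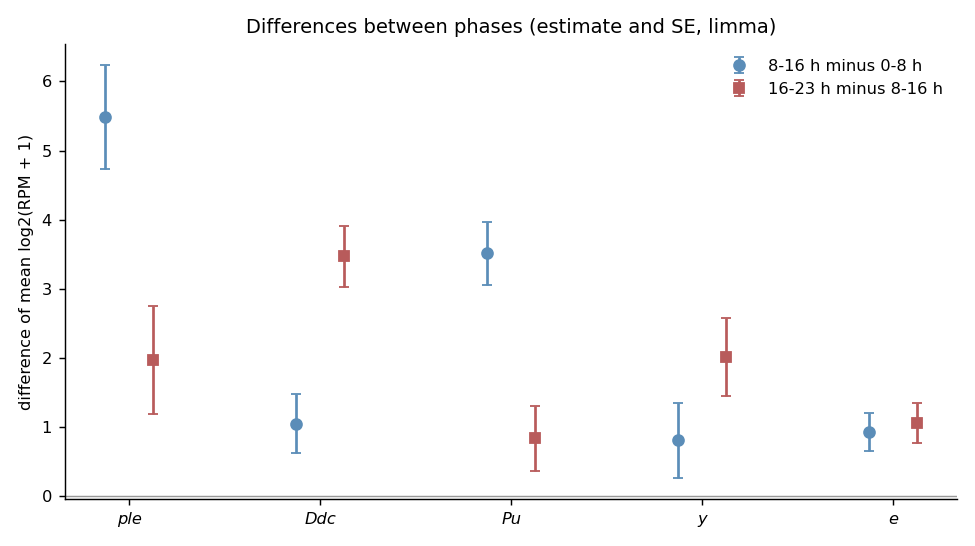
Difference of the mean log2(RPM + 1) between phases (vertical axis) for the 5 tested genes, as the limma estimate with its SE, for 8-16 h minus 0-8 h (circles) and 16-23 h minus 8-16 h (squares). pale and Punch have their larger difference at the earlier step (5.49 and 3.52), Ddc and yellow at the later one (3.47 and 2.01).

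The genes were thus spread in time. Punch passed 10% of its summed RPM over the series at 10.1 h, ebony at 11.2 h, pale at 13.4 h, yellow at 15.2 h and Ddc at 15.9 h. With TMM scaling ebony passed 10% at 14.1 h, after pale at 14.0 h, so their order depends on the scale. The midpoints lay closer together, with 50% of the summed RPM reached at 17.5 h by Punch, 18.2 h by yellow, 18.4 h by ebony and 18.5 h by both pale and Ddc. tan reached its midpoint at 13.4 h, on few reads, and black at 17.0 h. The interval from 10% to 90% lasted 12.0 h in Punch, 10.2 h in ebony (6.82 h with TMM scaling), 8.18 h in pale, 6.25 h in Ddc and 6.10 h in yellow. The windows of 16-23 h held 89.1% of the summed RPM of Ddc and 83.5% of that of yellow, compared with 62.6% for pale, 57.5% for Punch and 27.1% for tan. These hours are descriptions of a single series and were not tested.

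**Figure D3:**
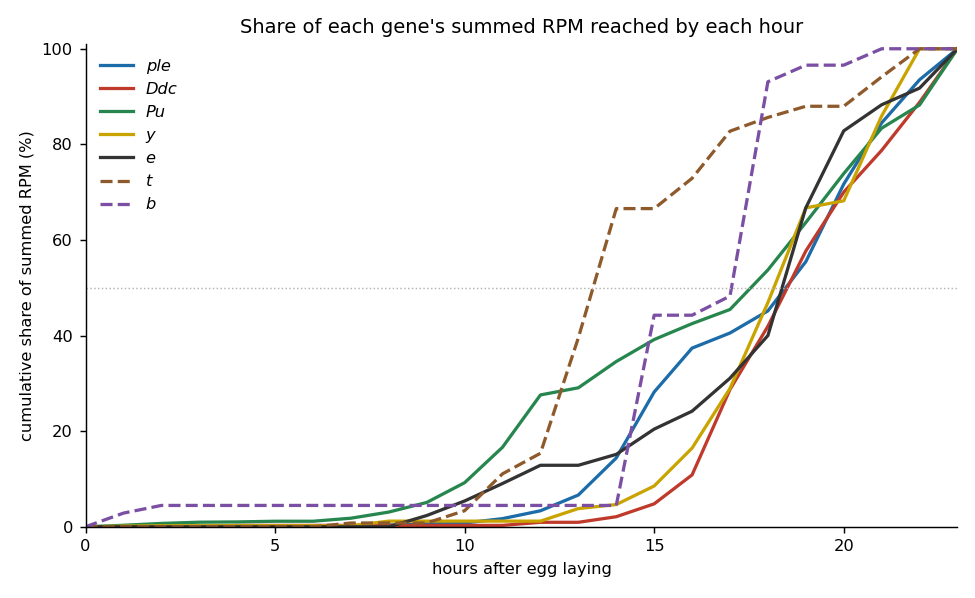
Cumulative share of each gene's summed RPM in percent (vertical axis) against hours after egg laying, 1 line per gene, dashed for tan and black, which have 57 and 20 reads. Punch starts first and Ddc last of the genes with over 100 reads, and the 5 solid lines cross 50% between 17.5 and 18.5 h.

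From 16 h on the levels had a clear order at its top. pale had a mean of 569 RPM and was above Punch, with a mean of 75.2 RPM, in 7 of 7 windows, with all intervals apart and no overlap of the ranges. Punch was above Ddc (23.9 RPM) in 6 windows, the exception being 16-17 h. Ddc was above yellow (10.4 RPM) in all 7 windows, but their intervals were apart in only 4. yellow was above ebony (3.45 RPM) in 5 windows, with the intervals apart in 4. ebony exceeded tan (0.731 RPM) in 6 windows, with the intervals apart in 2. tan and black (0.337 RPM) could not be ordered, since their intervals were apart in no window. The ranges of all neighbours below pale overlapped.

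Ratios of reads within a library do not depend on its depth or scale. The ratio of pale to Ddc, the enzymes of successive steps, was 225 (exact interval 103 to 615) at 13-14 h, 51.4 (37.3 to 72.8) at 15-16 h and 5.99 (5.15 to 7.00) at 16-17 h. It then went back through 11.9 (10.2 to 13.9) and 22.1 (19.2 to 25.6) to 49.6 (41.2 to 60.3) at 20-21 h. These intervals are apart from each other at every successive step from 15-16 h to 19-20 h, so tyrosine hydroxylase and dopa decarboxylase RNA did not keep a fixed proportion.

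The ratio of pale to Punch was 0.269 (0.187 to 0.381) at 9-10 h, 0.858 (0.707 to 1.04) at 10-11 h and 1.04 (0.870 to 1.24) at 11-12 h, and then 15.3 (6.78 to 42.9) at 12-13 h, on 6 reads of Punch, and 9.79 (8.21 to 11.8) at 13-14 h. Later it was 19.1 (15.7 to 23.6) at 15-16 h, 7.42 (6.29 to 8.81) at 16-17 h and 3.88 (3.54 to 4.27) at 17-18 h, and 9.36 (8.60 to 10.2) at 20-21 h. The ratio of Ddc to yellow lay at 1.59 (1.25 to 2.03) at 17-18 h, 1.72 (1.36 to 2.18) at 18-19 h and 1.07 (0.811 to 1.40) at 20-21 h, with 3.09 (2.32 to 4.17) at 16-17 h. At 19-20 h, where yellow had 1 read, it was 18.0 with an interval of 2.84 to 750, apart from those of the neighbouring windows, and at 22-23 h there were 8 reads of Ddc and none of yellow.

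**Figure D4:**
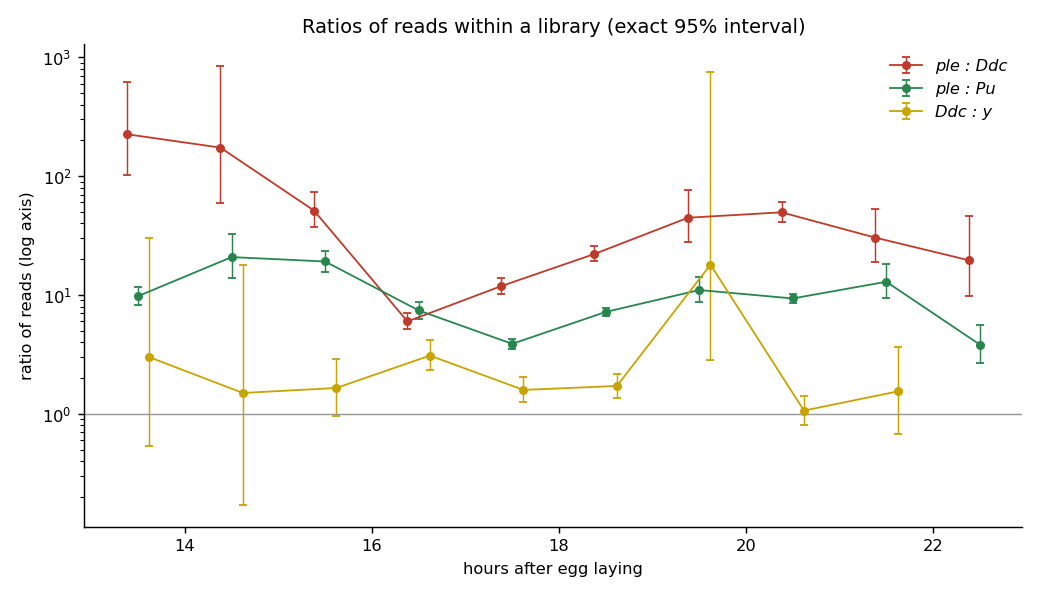
Ratio of reads of pale to Ddc, pale to Punch and Ddc to yellow within each library (vertical log axis) against hours after egg laying from 13 h on, with exact 95% intervals. The ratio of pale to Ddc goes from 225 at 13-14 h to 5.99 at 16-17 h and back to 49.6 at 20-21 h.

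The start sites were narrow. On the dm3 build of the genome, the TSC of pale covered 34 bp of chromosome arm 3L, from 6712607 to 6712640 on the minus strand. That of Ddc covered 25 bp of 2L, from 19120280 to 19120304 on the minus strand, and that of black 5 bp of 2L, from 13821244 to 13821248 on the plus strand. The TSC of ebony covered 16 bp of 3R, from 17062885 to 17062900 on the minus strand. On the X chromosome, the TSC of yellow covered 23 bp from 250535 to 250557 on the plus strand and that of tan 4 bp from 9117305 to 9117308 on the minus strand. The 9 TSCs had a median width of 16 bp, compared with 54 bp over the 21140 TSCs assigned to a gene. A TSC with few reads can show few start positions, so the widths of black and tan are bounded by their 20 and 57 reads. A single TSC was found in 6 of the 7 genes, as in 56.7% of all genes, and each of those 6 also has a single start among its annotated transcripts.

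Punch alone had several promoters, 3 TSCs on the plus strand of chromosome arm 2R. The second, 20 bp from 17066622 to 17066641, took 3018 reads or 94.9% of the total. The first, 14 bp from 17062816 to 17062829, took 134 reads or 4.21%, and the third, 10 bp from 17069204 to 17069213, took 28 reads or 0.881%. The first and second TSC begin 3806 bp apart. The 3 annotated Punch transcripts have 3 distinct starts that span 3804 bp in the annotation used here, which is of a later build and was compared by spacing only.

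The weaker promoter of Punch had most of its reads, 119 of 134, in 15-21 h, and 10 of the others in the first 2 windows. The first TSC had 0 reads beside 231 at 10-11 h and 0 beside 245 at 11-12 h, when the second TSC was at 67.3 and 99.3 RPM. In the 6 windows of 15-21 h it had 4, 19, 46, 35, 3 and 12 reads, and after them none. Its level was highest at 17-18 h, with 6.23 RPM. Its share of the Punch reads was 0% (interval 0 to 1.48) at 11-12 h, 11.9% (7.30 to 17.9) at 16-17 h, 8.23% (6.09 to 10.8) at 17-18 h, 5.66% (3.98 to 7.79) at 18-19 h and 2.00% (1.04 to 3.47) at 20-21 h. The intervals at 16-17 h and 17-18 h were apart from those at 11-12 h and 20-21 h. The low point of total Punch RNA at 16-17 h was thus one of the second TSC, which stood at 23.5 RPM there.

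Whether the proportion of the first and second TSC changed with time was tested with a quasi-binomial spline, fitted to the 2 strongest TSCs of each gene with at least 1 mean RPM in both. Punch was called (adjusted p = 0.00229), as were 56.0% of the 2755 genes tested, so this call does not set Punch apart. limma on the log2 ratio of the TSCs, with 0.5 added to the reads of each, gave a fitted range of 5.90 (SE 1.04, adjusted p = 3.66e-04). Where the first TSC had 0 reads, as beside 245 at 11-12 h, that ratio follows the reads of the second TSC and the depth. This range is therefore not separate evidence of a change in promoter use. The first TSC entered the test with a mean of 1.03 RPM. In the quasi-binomial fit its share was highest at 2-3 h, where it had 0 of 3 Punch reads, and lowest at 22-23 h. At 1-2 h, 9 of 52 Punch reads, 17.3% (interval 8.23 to 30.3), began in the first TSC. Leaving out 1-2 h gave an adjusted p of 0.674 in the quasi-binomial test, and each of the other 22 windows could be left out without loss of the call. The call thus rests on 1-2 h and does not bear on the share of the first TSC in 15-21 h.

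**Figure D5:**
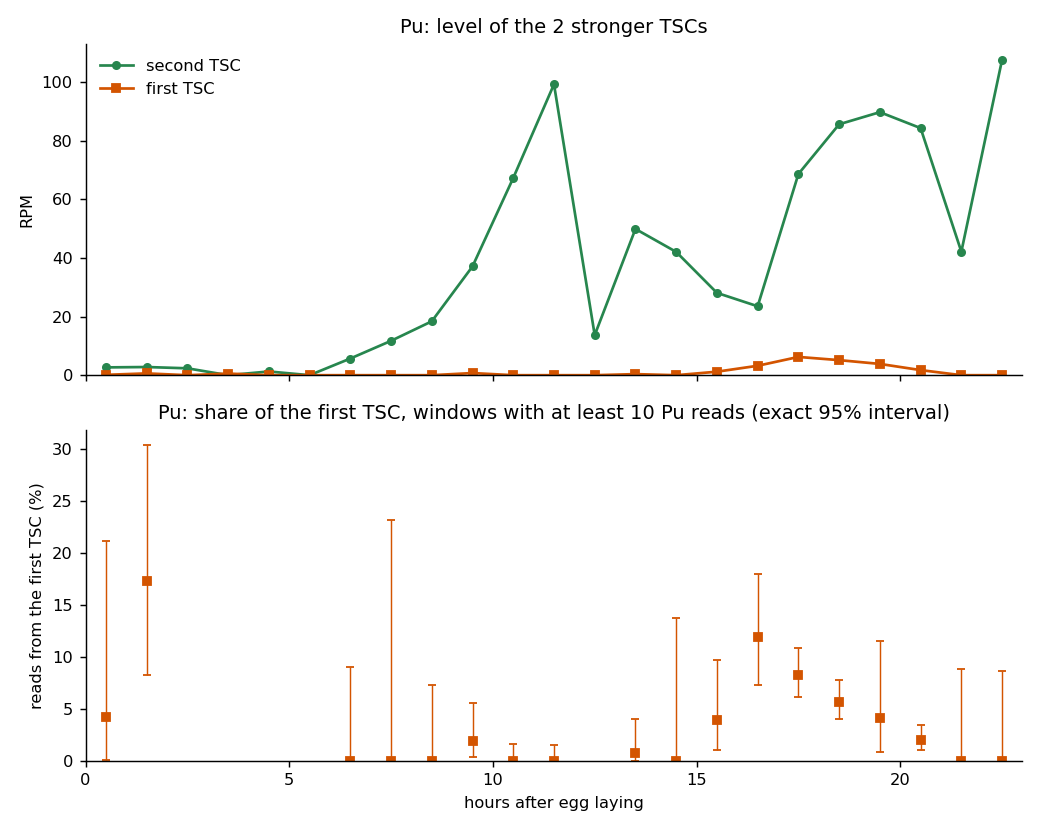
Upper plot, level in RPM of the first and second TSC of Punch by hours after egg laying, and lower plot, share of Punch reads that began in the first TSC in percent, with exact 95% intervals, for windows with at least 10 Punch reads. The first TSC takes 11.9% of the reads at 16-17 h and 0% at 11-12 h.

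Some RNA of the pathway was present in the youngest embryos. Punch had 24 reads at 0-1 h and 52 at 1-2 h, at 2.90 and 3.54 RPM, and 1 read each at 3-4 h and 4-5 h. pale had 10 and 14 reads at 1.21 and 0.952 RPM, then 8 reads or 6.27 RPM (interval 2.71 to 12.4) at 2-3 h and none at 4-5 h. yellow and black had 1 read in each of the first windows, and Ddc, ebony and tan had none. All windows were barcoded and then handled as a pool, so a read carrying the wrong barcode and a read of these stages cannot be told apart.

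The genes whose profiles most resembled each of the 5 tested genes were listed by Pearson's r of their log2(RPM + 1) values in the 23 windows, among the 6986 genes that reached 25 RPM. The windows share libraries and their depths, so the coefficients are descriptions. For pale they were FBgn0004028 (0.99), Mlp60A (0.98), a muscle LIM protein gene, and FBgn0028433 (0.98). For Ddc they were Acp65Aa (0.99), an adult cuticle protein gene, Stacl (0.99) and CG14191 (0.98). For Punch they were Cipc (0.97), CG15673 (0.95) and CG15347 (0.95), for yellow CG15202, Pgcl and Jhbp12 (each 0.88), and for ebony CG34038 (0.93), CG13024 (0.92) and by (0.90). None of the 7 genes was among the nearest of another, although pale, Punch and Ddc alone reached that level. Between the tested genes, the coefficient was 0.87 for pale and Punch, 0.84 for Ddc and ebony, 0.80 for pale and Ddc, 0.80 for Ddc and yellow, and 0.50 for Punch and yellow.

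All 6 genes listed for tetrahydrobiopterin synthesis, its recycling and the enzymes around it were tested, and from 0-8 h to 8-16 h none rose and 1, Sptr, fell, beside 25.1% and 20.4% of all tested genes. On a list this short such counts are near those shares. Sptr, sepiapterin reductase, fell by 1.69 on the log2 scale (SE 0.43, adjusted p = 0.00283), from a mean of 61.7 RPM to 13.6 RPM. At the later step, where 16.0% of all genes rose and 39.4% fell, none rose and Catsup fell by 1.36 (SE 0.25, adjusted p = 9.87e-05), from 280 to 112 RPM. On the TMM scale 1 gene rose at each step, Catsup at the earlier and Hn at the later. Over all 9538 genes tested, 2530 rose at the earlier step and 2084 at the later on that scale, so these counts do not set the list apart. Hn, phenylalanine hydroxylase, had means of 0, 0.857 and 2.56 RPM and met the minimum mean through 16-23 h. Its highest value, 7.88 RPM at 22-23 h, was 3 reads. purple (pr), the next enzyme after Punch, had means of 152, 108 and 69.7 RPM in the 3 phases and was not called at either step. In 0-8 h it was thus above Punch, whose mean there was 3.52 RPM. The list's medians were -0.08 and -0.38, beside 0.01 and -0.60 over all tested genes.

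The genes listed around beta-alanine supply were measured better than black. All 4 listed genes were tested. Of them 3 rose at the earlier step, beside 25.1% of all genes, and 2 at the later, beside 16.0%, and none fell, with medians of 2.18 and 1.18. pyd3, beta-ureidopropionase, the last step of pyrimidine breakdown to beta-alanine, had means of 6.93, 16.3 and 20.2 RPM and rose by 1.61 (SE 0.43, adjusted p = 0.00397) at the earlier step. su(r), dihydropyrimidine dehydrogenase, rose by 2.06 (SE 0.46, adjusted p = 6.64e-04) at the later step. Gad1, a glutamate decarboxylase of neurons related to black, had the highest level of the list and rose by 3.01 and then 3.26 (adjusted p = 6.09e-04 and 3.32e-04). It is counted among the 3 and the 2 genes that rose, though it acts on glutamate. A part of Gad1 in beta-alanine supply was not tested.

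The genes listed for dopamine acylation and side branches, which include a tyrosine decarboxylase, did not share a profile. Here and in the lists below, rows were looked up by a single identifier per gene. A listed gene without a row may stand under another identifier and cannot be called unmeasured. Of 11 listed genes 7 had a row and 5 were tested. At the earlier step 3 rose (all genes, 25.1%), and at the later step 4 rose and 1 fell (all genes, 16.0% and 39.4%), with medians of 1.25 and 2.53. The minimum mean favours the later count of rises. Of the 4 genes, AANATL2, with phase means of 0, 2.39 and 23.4 RPM, met it through 16-23 h. So did Tbh, with 0.0338, 2.73 and 10.3 RPM. The gene that fell was amd, a Ddc paralogue needed for cuticle, with means of 6.19 RPM in 0-8 h, 38.3 RPM in 8-16 h and 2.18 RPM in 16-23 h. amd rose by 2.39 (SE 0.61, adjusted p = 0.00259) and then fell by 3.58 (SE 0.63, adjusted p = 5.88e-05), whereas Ddc rose at that later step. AANATL4 rose by 3.47 (SE 0.58, adjusted p = 3.34e-05) and Tdc1, a tyrosine decarboxylase, by 2.53 (SE 0.47, adjusted p = 1.24e-04) at the later step. speck itself (AANAT1) was not analysed here.

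Of 6 oxidases listed, 3 had a row under the identifier looked up, which does not show the others unmeasured, and 2 were tested. Both rose at the earlier step (all genes, 25.1%), and at the later step 1 rose and 1 fell (all genes, 16.0% and 39.4%), with medians of 2.84 and 0.82. PPO2, a prophenoloxidase of crystal cells, had means of 6.37, 50.6 and 23.8 RPM and rose by 3.77 (adjusted p = 1.59e-04) before it fell by 1.87 (adjusted p = 0.0345), a call lost with TMM scaling (adjusted p = 0.201). Mco1, a multicopper oxidase, rose at both steps, by 1.91 (adjusted p = 0.00525) and 3.51 (adjusted p = 1.63e-05). PPO3 had a mean of 0.220 RPM.

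Among the relatives of yellow, 10 of 13 had a row and 8 were tested. At the earlier step 4 rose and none fell (all genes, 25.1% and 20.4%), and at the later step 3 rose and 1, yellow-e3, fell (all genes, 16.0% and 39.4%), with medians of 1.01 and 0.67. The minimum mean favours the later count of rises. Of the 3 genes, yellow-f, with phase means of 0, 1.49 and 4.58 RPM, met it through 16-23 h. So did yellow-f2, with 0.921, 1.52 and 14.7 RPM. yellow-h was the highest with means of 2.16, 18.7 and 31.5 RPM and rose at both steps, by 2.27 (adjusted p = 3.95e-04) and 1.15 (adjusted p = 0.0475). yellow-c rose by 2.76 (adjusted p = 8.17e-06) at the earlier step. yellow-e2 was highest at 8-9 h, with 25.9 RPM, and was called at neither step, whereas yellow-f and yellow-f2, like yellow-h, were highest at 22-23 h. The 10.5 RPM of yellow-f and 21.0 RPM of yellow-f2 there came from a library of 380700 reads, in which 1 read is 2.63 RPM. The windows of the highest values thus differed within the family, on few reads in yellow-f and yellow-f2, and were not tested.

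Of the other loci mutated in the strain, cinnabar and brown had lower means in 16-23 h, 1.35 and 0.240 RPM, than yellow with 10.4 RPM. The third, speck, was not analysed here. cinnabar (cn) had a mean of 3.03 RPM, was highest at 8-9 h with 10.5 RPM, and differed at neither step (-0.61, adjusted p = 0.315, and -0.50, adjusted p = 0.401). brown (bw) had a mean of 0.824 RPM. Of the 4 loci 3 had a row, 2 were tested, and the later rise of yellow was the only call, with medians of 0.10 and 0.76. Over all tested genes 25.1% rose and 20.4% fell at the earlier step, and 16.0% rose and 39.4% fell at the later. Of 7 eye pigment genes 6 had a row and 2, cn and ry, were tested, with no call at either step and medians of -0.24 and -0.65. white (w) had a mean of 0.904 RPM.

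Of the 3 listed regulators of epidermal barrier genes, 2 rose at the earlier step (all genes, 25.1%) and 2 fell at the later one (all genes, 39.4%), with medians of 1.40 and -1.70. With TMM scaling 1 of them fell at the later step, as did 1228 of the 9538 genes tested. grainy head (grh), a factor known to act on Ddc and ple, had means of 51.4, 61.8 and 15.5 RPM, and fell by 1.70 (SE 0.54, adjusted p = 0.0103) at the later step, a call lost with TMM scaling (adjusted p = 0.133). ttk, the highest of the list, rose by 1.40 (adjusted p = 0.0114) and fell by 2.61 (adjusted p = 5.25e-05), and vvl rose by 2.75 (adjusted p = 0.00233). Their highest values all came at 10-11 h, before the late rise of Ddc and yellow.

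Markers of the tissues that use the pathway also changed over these phases. All 6 markers of cuticle-secreting epidermis were tested, 5 rose at the earlier step (all genes, 25.1%), and 2 rose and 1 fell at the later (all genes, 16.0% and 39.4%). The gene that fell, knk, was not called with TMM scaling (-0.99, adjusted p = 0.141). Their summed level was 10.2 to 380 RPM in 0-8 h, 366 to 4532 RPM in 8-16 h and 7330 to 50679 RPM in 16-23 h, most of the last from the cuticle protein gene Cpr47Eg with 30580 RPM on average. The chitin synthase gene kkv had means of 6.28, 149 and 63.2 RPM. Of 4 monoamine neuron markers 3 had a row, and all 3 rose at both steps (all genes, 25.1% and 16.0%), with a summed level of 0 to 5.86, 11.3 to 284 and 189 to 553 RPM. Vmat, the vesicular monoamine transporter, made up most of that sum, with means of 1.84, 119 and 392 RPM, and the dopamine transporter DAT had means of 0.128, 4.99 and 12.6 RPM.

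All 4 general neuron markers rose at the earlier step (all genes, 25.1%), and at the later one 2 rose and 1, elav, fell (all genes, 16.0% and 39.4%), with a summed level of 5.20 to 113, 168 to 1923 and 994 to 1592 RPM. Of 4 markers of crystal cells and hemocytes 2 had a row and only PPO2 was tested, with a summed level of 0 to 23.5, 24.8 to 73.6 and 5.95 to 80.1 RPM. The part of these tissues in the levels of pale, Punch and Ddc was not tested.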

How the data were processed

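RAMPAGE libraries of 23 windows were used. The authors mapped reads with STAR (version not given in the sources used here) to FlyBase release 5, called TSCs on pooled data, and deposited RPM values per TSC and per gene, the latter being sums of TSCs. The deposited BED file holds other values, the TSC positions, printed counting from 1. The deposited table of a smoothed score per gene was not used. All RPM values were whole multiples of 1 read (tolerance 0.01), so reads were recovered, and the treatment of PCR duplicates is unknown. Symbols matched 10253 of 10622 identifiers.

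Tests used limma 3.58.1 (trend, robust) on log2(RPM + 1), with mean RPM of at least 1 and Benjamini-Hochberg adjustment over all genes at 0.05. They comprised a natural spline with 4 degrees of freedom and contrasts of 3 phases. edgeR 4.0.16 on recovered reads was an alternative. Other alternatives were the pseudocounts 0.1 and 10, other filters, TMM scaling, a spline with 6 degrees of freedom, and libraries left out. Promoter use was tested by quasi-binomial regression with Williams weights. The moderation of dispersions planned for it gave many false calls on simulated data and was dropped.

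All genes and lists were chosen with earlier results of these data known. The rule for named genes took all 7 pathway genes, the 3 nearest profiles of each tested gene, the strain's loci and at most the 3 highest genes per list. Others named (Hn, AANATL2, Tbh, yellow-e3, yellow-f, yellow-f2, elav, DAT, kkv, knk) were chosen after their values were seen. Listed genes were looked up by a single identifier each, and rows under other identifiers were not searched. Genes not found in that way were not analysed here, and no sequences were printed.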

Additional observations from a re-analysis of the deposited data

How the results depend on the processing

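No paired analysis was possible because each window has 1 library and no group holds replicates. The count filter filterByExpr, which asks for reads in most windows, kept none of the 7 genes and left 4633 genes called for time, 1927 for the earlier step (630 higher) and 2999 for the later step (161 higher). With TMM scaling the later step gave 3312 calls, 1228 of them lower, and with edgeR 2963, 1164 of them lower, beside 5284 and 3756 in the main analysis. edgeR called 8223 genes for time, 7898 of them shared with the 8797 of limma. A pseudocount of 10 left 2 of the pathway genes rising at the earlier step.

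Leaving out each window in turn gave 8567 to 8856 genes called for time, 3842 to 4488 for the earlier step (2159 to 2456 higher, 1590 to 2071 lower), 4791 to 5586 for the later step (1408 to 1621 higher, 3372 to 3965 lower) and 1479 to 1562 for promoter use. It left 5 pathway genes called for time, and 3 to 4 rising at each step. No direction of a pathway gene reversed in any setting. With a pseudocount of 10, the earlier difference of ebony was no longer called (adjusted p = 0.172) and the later one of Punch was (adjusted p = 0.0470). The hours of 50% of the summed RPM, for which TMM scaling and leaving out the 4 shallowest libraries were tried after seeing the data, moved by less than 1 h in all 7 genes. Under the same settings the hours of 10% moved by over 1 h in ebony, by TMM scaling from 11.2 to 14.1 h, and in black, on 20 reads, without the 4 shallowest libraries from 14.1 to 16.4 h.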
